A study of Mus musculus with 7 samples.

Results

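The genes described here are 39 named genes of the lysosome among the 27583 genes of an RNA sequencing table. They comprise 9 cysteine proteases, 3 aspartic and serine proteases, 9 glycosidases, 5 sulfatases, 6 lipid enzymes and soluble cofactors, 6 membrane proteins and the regulator Tfeb. They were chosen by name and not by a cutoff on their values, but with earlier results of these data known, and all 39 were found. By background knowledge of mouse brain cells they were split into 7 microglia-enriched genes (Cd68, Ctss, Ctsc, Ctsh, Ctsz, Lgmn and Grn) and 32 ubiquitous ones.

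The libraries were made from hippocampus of male wild-type (WT) mice of an inbred laboratory strain, which the sample titles give as C57BL6/J and the source labels as C57BL/6. The study was designed around hippocampus after spinal cord injury and healthy controls, but all 7 samples carry the same labels, so all stand in a single group as replicates 1 to 7 and no injured animal is set against a control. Age, time after injury and the number of animals are not given in the labels. Nothing in them says that the samples came from separate animals, so the p-values below reflect only how these libraries spread, and that spread may be technical.

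Lysosomes are acidic organelles in which hydrolases break down proteins, sugar chains, sulfated glycans and lipids delivered by endocytosis, phagocytosis and autophagy. Most soluble hydrolases reach them through the mannose 6-phosphate pathway, membrane proteins such as Lamp1 protect and shape them, and TFEB binds E-box elements of many lysosomal genes. In the brain every cell type has lysosomes, and microglia, the resident phagocytes, are rich in cathepsin S and CD68. Inherited loss of many of these enzymes causes lysosomal storage disease, often with damage to neurons.

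Values are FPKM, fragments scaled to gene length and to the size of the library, as the authors deposited them. The smallest step between the values of a gene corresponds to 1 read, and this step gave 36892251 to 37999035 recovered reads per library in the 12052 genes with a median of at least 1 FPKM, the genes kept for all counts. Between 12007 and 12185 genes reached 1 FPKM in a library, and mitochondrially encoded genes took 12.8% to 17.0% of all FPKM. All 10 neuron and all 10 astrocyte markers were detected in every library. Replicate 5 stood apart: 10 markers of striatum, a neighbouring brain region, summed to 1725 FPKM in it, against a median of 60.4 FPKM over the 7 libraries, and its neuron score was the lowest at -0.71. The neuron markers did not move together there: 6 of 10 were lowest in replicate 5, and 2, Gad1 and Gad2, were highest. Slc17a7 had 215 FPKM in replicate 5 against a median of 446 FPKM, and Gad1 100 FPKM against 67.6 FPKM. The score therefore does not measure the number of neurons. The part of these differences in the lysosomal values was not tested, and results that rest on replicate 5 are given with and without it.

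Promoters are shown for members that hold the E-box CACGTG, the core of the element that TFEB binds, and for 1 microglia-enriched member with another motif. RefSeq windows on mm10, from 250 bases before to 50 after the start, were matched for 34 of the 39 members. Ctsb, Ctsh, Galns, Asah1 and Npc1 had no window. Capitals mark the E-boxes, or, in Ctsc, the motif AGGAAGT on the opposite strand, a core recognised by PU.1, a transcription factor of myeloid cells. Each stretch of 100 bases is written 5′ to 3′ on the strand of its gene.
Gla (chrX:134601156-134601255, minus strand): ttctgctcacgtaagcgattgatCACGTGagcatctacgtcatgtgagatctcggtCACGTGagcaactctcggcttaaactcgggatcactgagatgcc
Ctsd (chr7:142387873-142387972, minus strand): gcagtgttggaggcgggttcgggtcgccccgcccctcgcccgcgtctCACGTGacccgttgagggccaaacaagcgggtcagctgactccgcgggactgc
Mcoln1 (chr8:3500419-3500518, plus strand): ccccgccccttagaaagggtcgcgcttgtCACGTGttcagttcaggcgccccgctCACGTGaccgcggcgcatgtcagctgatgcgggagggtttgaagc
Lamp1 (chr8:13159061-13159160, plus strand): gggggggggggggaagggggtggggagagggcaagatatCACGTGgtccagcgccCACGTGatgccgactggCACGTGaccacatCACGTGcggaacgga
Lgmn (chr12:102439093-102439192, minus strand): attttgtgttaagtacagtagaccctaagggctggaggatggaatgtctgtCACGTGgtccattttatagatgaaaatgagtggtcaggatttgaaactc
Ctsc (chr7:88277887-88277986, plus strand): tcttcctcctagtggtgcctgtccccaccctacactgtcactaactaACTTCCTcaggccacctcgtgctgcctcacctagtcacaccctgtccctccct

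The printed stretches of Lamp1 held 4 E-boxes, those of Gla and Mcoln1 held 2 each, and those of Ctsd and Lgmn held 1 each. Among the 34 members with a window, 12 held at least 1 E-box (35.3%), against 12.01% of the 9556 genes kept that had a window and 8.09% of all 27025. These were Arsa, Ctsa, Ctsd, Ctsf, Ctsl, Gla, Glb1, Lamp1, Lgmn, Mcoln1, Naglu and Sgsh. The E-box was present in 1 of 6 microglia-enriched members, Lgmn, and in 11 of 28 ubiquitous ones. A gene with more than 1 window counted if any window held the motif. For Lgmn and Ctsa a single window held the E-box, and it lay further inside the gene than the window without. The longer palindrome TCACGTGA, which contains an E-box, was present in Ctsa, Ctsd, Gla and Mcoln1, 11.8% of the members against 2.36% of the genes kept. The motif AGGAAGT, sought on both strands, was present in Ctsc, Ctss, Gla and Gusb, also 11.8% of the members, against 9.40% of the genes kept. A match describes these letters in this window and not a bound site.

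The 39 genes summed to 1490 FPKM in the lowest library, 1553 FPKM at the median and 1578 FPKM in the highest, between 0.439% and 0.461% of all FPKM. The ranking of the levels was steep at the top and crowded below. Psap, which encodes the precursor of the saposins that present sphingolipids to their hydrolases, gave 30.1% to 34.2% of the summed FPKM. The next 3 in level were Ctsd, Lamp1 and Ctsb. In 6 of 7 libraries the top 5 ran in the order Psap, Ctsd, Lamp1, Ctsb and Ids, and in replicate 5 Ctss stood above Ids. The top 5 gave 65.0% to 66.7% of the sum. The median FPKM of Psap was 502 times that of Tfeb, the lowest. Of 38 pairs of neighbours in this order, 9 had ranges that did not overlap. Overlap in the other 29 does not show that their order changed, because all genes were measured in the same libraries. Lamp1 and Ctsb overlapped in range, yet Lamp1 was the higher in every library. Levels of different genes rest on the gene lengths the authors used, and no source used here gives them. Lengths implied by the step of 1 read ran from 0.318 times (Mcoln1) to 2.53 times (Gusb) the GENCODE M21 exon length, relative to Lamp1 at 1. In this bulk RNA, fewer cells of a type and less RNA per cell cannot be told apart.

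**Figure D1:**
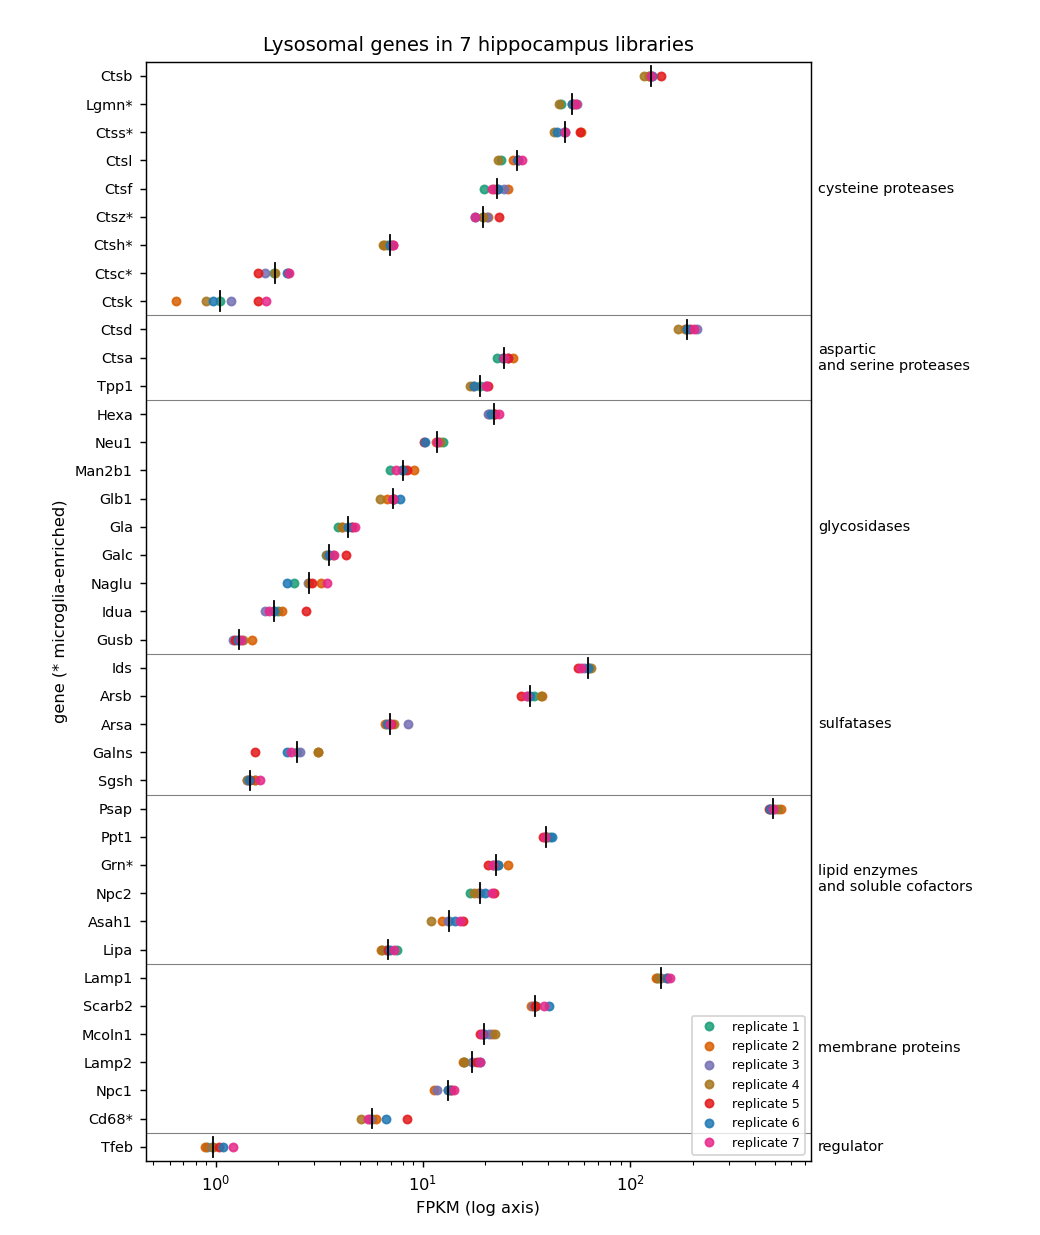
FPKM (log axis) of each lysosomal gene in each of the 7 hippocampus libraries, genes ordered by median within role, each point 1 library. Psap lies highest, with a median of 489 FPKM, and Tfeb lowest, with 0.975 FPKM, and for most genes the 7 points lie close together.

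Cysteine proteases, which cleave proteins inside the lysosome, were led by Ctsb. Cathepsin B had a lowest value of 117 FPKM, a median of 126 FPKM and a highest of 141 FPKM, the last in replicate 5. Cathepsin K, best known for collagen breakdown by osteoclasts in bone, was the lowest of the class and the most variable of all members, at 0.643 FPKM, a median of 1.05 FPKM and 1.74 FPKM. Its values were 1.61 FPKM in replicate 5 and 1.74 FPKM in replicate 7, and the other 5 libraries lay between 0.643 and 1.19 FPKM, so these libraries stood above all the rest. Ctsk rested on 38 to 105 reads per library. Poisson 95% intervals were 26.9 to 52.2 reads for the lowest and 85.9 to 127 reads for the highest, and they cover counting error only. Its coefficient of variation (CV, the SD as a percentage of the mean) was 33.8%, against 11.99% from counting error alone. Ctsk lies on chromosome 3 at chr3:95499256-95509362 (mm10, plus strand), 17423 bases from Ctss, and the neighbours did not rank the libraries alike. The remaining ubiquitous members of this class, Ctsf and Ctsl, had medians of 22.8 and 28.5 FPKM.

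Cathepsin S (Ctss, chr3:95526786-95556403) is a protease of antigen-presenting cells and microglia that remains active at neutral pH. Ctss had 48.5, 58.1, 48.2, 42.7, 57.5, 44.4 and 48.7 FPKM in replicates 1 to 7. Replicates 2 and 5 were nearly level and stood above the other 5 libraries, and replicate 4 was the lowest. The value of Ctsc, which activates serine proteases of immune cells, was 1.60 FPKM at the lowest, 1.93 FPKM at the median and 2.25 FPKM at the highest. Ctsc was lowest in replicate 5, where Ctss was high. Ctsz, a carboxypeptidase, had a lowest value of 17.8 FPKM, a median of 19.6 FPKM and a highest of 23.2 FPKM, in replicate 5. Lgmn, the asparagine-specific protease legumain, ran at 45.1 FPKM in replicate 4, with a median of 52.6 FPKM and a highest of 55.3 FPKM. In 5 of 7 libraries Lgmn lay above 52 FPKM, and replicates 1 and 4 lay below 47 FPKM. Ctsh, an aminopeptidase, had 6.45 FPKM at the lowest, 6.94 FPKM at the median and 7.16 FPKM at the highest. With 406 to 455 reads, its CV of 4.27% was below the 4.80% that counting error alone gives, so no difference between libraries was detectable at this depth.

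The aspartic and serine proteases spread less. Ctsd, cathepsin D, the main aspartic protease of lysosomes, had 170 FPKM at the lowest, in replicate 4, 188 FPKM at the median and 209 FPKM at the highest, in replicate 3. Tpp1, a tripeptidyl peptidase lost in a childhood neuronal ceroid lipofuscinosis, had 16.9 FPKM in replicate 4, a median of 18.8 FPKM and 20.5 FPKM in replicate 5. Both had their lowest value in replicate 4, and both were high in replicates 3, 5 and 7. Ctsa, a serine carboxypeptidase that also stabilises beta-galactosidase and neuraminidase, ranged from 22.7 to 27.2 FPKM. In GENCODE M21, 34.4% of the exon bases of Ctsd are shared with Gm49369 on the same strand, so its reads could be split between them.

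Glycosidases trim sugar chains from glycolipids and glycoproteins. Hexa, the alpha subunit of beta-hexosaminidase, was the highest of the class and nearly flat, with 20.7 FPKM at the lowest, 22.0 FPKM at the median and 23.3 FPKM at the highest. Gusb, beta-glucuronidase, was the lowest, with 1.21 FPKM, a median of 1.29 FPKM and 1.49 FPKM. Naglu, which removes N-acetylglucosamine from heparan sulfate, varied most, with 2.21 FPKM in replicate 6, a median of 2.83 FPKM and 3.43 FPKM in replicate 7. Naglu was low in replicates 1 and 6, at 2.39 and 2.21 FPKM, and the other 5 libraries lay between 2.80 and 3.43 FPKM. Idua, alpha-iduronidase, had 2.72 FPKM in replicate 5, and the other 6 libraries lay between 1.74 and 2.10 FPKM. Galc, which degrades the myelin lipid galactosylceramide, had 4.27 FPKM in replicate 5, and the other 6 libraries lay between 3.41 and 3.71 FPKM. Idua and Galc were thus higher in replicate 5 than in any other library. The other glycosidases Gla, Glb1, Man2b1 and Neu1 had medians between 4.36 and 11.7 FPKM.

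Sulfatases remove sulfate groups from glycans and sulfatide. Ids, iduronate 2-sulfatase, was the highest, with 55.8 FPKM at the lowest, in replicate 5, 62.3 FPKM at the median and 64.7 FPKM at the highest. Sgsh, the sulfamidase of heparan sulfate, was the lowest, with 1.41 FPKM, a median of 1.47 FPKM and 1.65 FPKM. With 234 to 271 reads per library the CV of Sgsh, 5.69%, was below its counting error of 6.38%, and 21.6% of its exon bases are shared with Card14 on the opposite strand. Galns, which desulfates keratan sulfate and chondroitin sulfate, lies at chr8:122578242-122611463 (minus strand). Galns had 2.46, 3.13, 2.56, 3.14, 1.55, 2.21 and 2.31 FPKM in replicates 1 to 7. Replicates 2 and 4 were almost equal and highest, and replicate 5 was lowest, on 208 reads (Poisson 95% interval 181 to 238) against 430 reads in the highest library (390 to 473). Arsa, which acts on the myelin lipid sulfatide, had 8.49 FPKM in replicate 3 and 6.55 to 7.28 FPKM in the other 6. Arsb, which desulfates dermatan sulfate, ran between 29.6 FPKM in replicate 5 and 37.6 FPKM in replicate 2. Of these 5 genes, Ids, Galns and Arsb were lowest in replicate 5. The exon bases of Arsb and Arsa overlap genes on the opposite strand by 32.3% and 18.8%, and no source used here says whether counting used strand. Over all roles, 8 members shared over 10% of their exon bases with another gene. Among them were Ctsl with 26.8%, Ctsb and Hexa with 12.8% each and Ctsa with 10.5%.

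Lipid enzymes and soluble cofactors were dominated by Psap (chr10:60277627-60302597, plus strand). Psap had 475, 534, 502, 517, 468, 475 and 489 FPKM in replicates 1 to 7. Its highest library was replicate 2 and its lowest was replicate 5. The spread was small, with a CV of 4.95%, but 11.3 times the counting error, because Psap was read 48938 to 55250 times per library. Asah1, acid ceramidase, varied most in the class, with 11.0 FPKM in replicate 4, a median of 13.3 FPKM and 15.6 FPKM in replicate 5. Lipa, the acid lipase of cholesteryl esters, had 6.30 FPKM, a median of 6.82 FPKM and 7.46 FPKM. Grn, progranulin, a microglia-enriched cofactor whose loss leads to frontotemporal dementia in humans, had 20.6 FPKM in replicate 5, a median of 22.5 FPKM and 25.7 FPKM in replicate 2. Npc2, the soluble cholesterol carrier, and Ppt1, the palmitoyl-protein thioesterase, had medians of 19.0 and 39.4 FPKM.

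Among membrane proteins Lamp1, the main glycoprotein of the lysosomal membrane, had 134 FPKM at the lowest, 141 FPKM at the median and 156 FPKM at the highest. Lamp1 was above 150 FPKM in replicates 5, 6 and 7, and between 134 and 141 FPKM in the other 4 libraries, without overlap. Cd68, a lamp family glycoprotein used as a marker of phagocytes, lies at chr11:69664213-69666153 (minus strand). Cd68 had 5.66, 5.95, 5.57, 5.05, 8.38, 6.65 and 5.43 FPKM in replicates 1 to 7. Replicate 5 was highest, replicate 6 next, and the other 5 libraries lay within 1 FPKM of each other. Poisson 95% intervals were 356 to 435 reads in replicate 5 and 212 to 274 reads in replicate 4. Lamp2, Scarb2, Npc1 and Mcoln1, a partner of Lamp1, a receptor for glucocerebrosidase, a cholesterol transporter and a calcium channel, had medians of 17.2, 34.7, 13.2 and 19.7 FPKM.

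Tfeb, the transcription factor that switches on lysosomal genes, was the lowest member, with 0.908, 0.891, 0.961, 0.975, 1.04, 1.08 and 1.22 FPKM in replicates 1 to 7. Replicates 5, 6 and 7 stood above the other 4, as for Lamp1. For Tfeb, though, replicate 5 had 295 reads and replicate 4 had 283, so this separation is within counting error. Tfeb lay below the minimum of 1 FPKM at the median and was left out of the counts over the 38 members kept. Counts and shares out of 39, and those over promoters, include it. It rested on 251 to 350 reads per library.

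**Figure D2:**
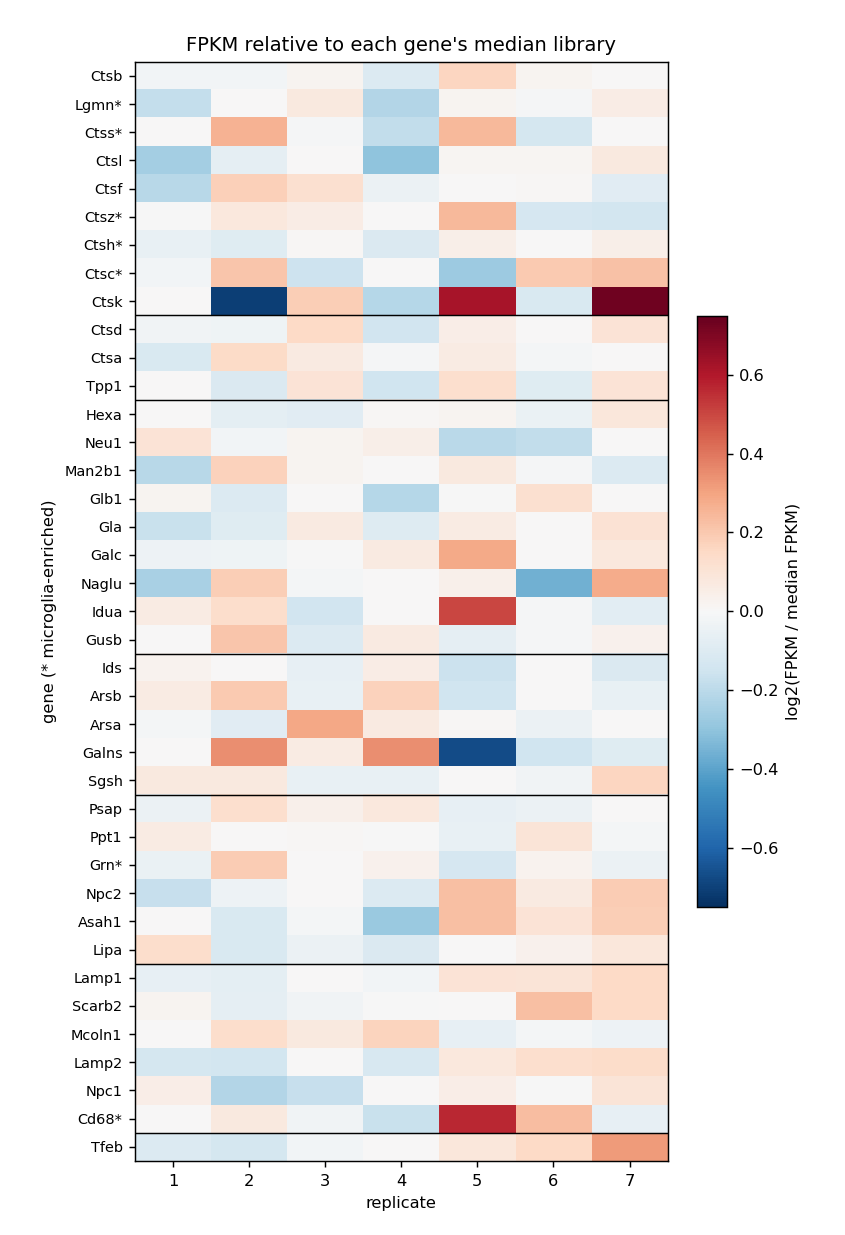
Deviation of each lysosomal gene from its own median, as log2 of FPKM over median FPKM, with genes in rows by role and the 7 libraries in columns. Ctsk, Galns, Cd68 and Idua hold the strongest colours, and replicate 5 is high for Cd68 and Idua and low for Galns.

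Over the members as a whole, the median spread between libraries was somewhat below that of all genes. For 25 of the 38 members kept the SD was below the median of all genes kept. These genes were not matched to the members in level. The SD of log2(FPKM + 1) had a median of 0.11 over the 38 members kept and 0.12 over all genes kept. The CV had a median of 7.97% over all 39 members, Tfeb included, and 9.44% over the genes kept. For 29 of the 39 members the CV was under 10%. For 31 of 39 it was at least 2 times the counting error, and for Ctsh and Sgsh it was at or below it. The microglia-enriched members had a median SD of 0.12 and the ubiquitous members 0.10. Each pair of libraries differed beyond sampling noise over all genes, and no library repeated another.

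A ratio of highest to lowest library of at least 1.5 was reached by 5 of 38 members, beside 24.5% of all genes kept. These were Ctsk with a ratio of 2.71, Galns with 2.03, Cd68 with 1.66, Idua with 1.56 and Naglu with 1.56. Without replicate 5 the count was 2, Ctsk and Naglu, beside 13.6% of genes. A single library stood apart from the other 6 for 3 of 38 members, Idua, Galc and Arsa, beside 9.72% of all genes. Without replicate 5 the count was 2, Ctsb and Grn, beside 3.87% of genes, and Idua, Galc and Arsa did not stand apart. The highest, next and lowest values of Arsa lay in replicates 3, 4 and 2. Leaving out replicate 5 therefore changed neither the gap of Arsa to its next library nor its range. Arsa dropped out only because the limit for standing apart is higher with fewer libraries. Without replicate 4 it was 5, beside 9.42% of genes.

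The extremes were not spread evenly over the libraries. Replicate 7 held the highest value of 10 of 38 members, beside 12.9% of all genes, and replicate 5 that of 9, beside 21.1%. Replicate 2 held the highest value of 8, beside 11.7%. The highest value of 2 members fell in replicate 1, beside 9.08% of all genes, and that of 3 members each in replicates 3, 4 and 6, beside 15.1%, 15.6% and 14.4%. Replicate 4 held the lowest value of 11 members, beside 20.1% of all genes, and replicate 5 that of 9, beside 26.0%. The lowest value of 7 members fell in replicate 2, beside 16.8%, of 6 in replicate 1, beside 9.06%, and of 3 in replicate 3, beside 10.7%. Replicates 6 and 7 held the lowest value of 1 member each, beside 9.76% and 7.64% of all genes. Replicate 5 was therefore the highest or lowest library for 18 of 38 members, a share of 47.4%, beside 47.1% of all genes. Of the 7 microglia-enriched members, Cd68 and Ctsz were highest and Ctsc and Grn lowest in replicate 5, and Cd68, Ctss and Lgmn were lowest in replicate 4. Ctsh, also counted as highest in replicate 5 and lowest in replicate 4, had 451 reads in replicate 5 and 455 in replicate 7, so its place is within counting error.

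**Figure D3:**
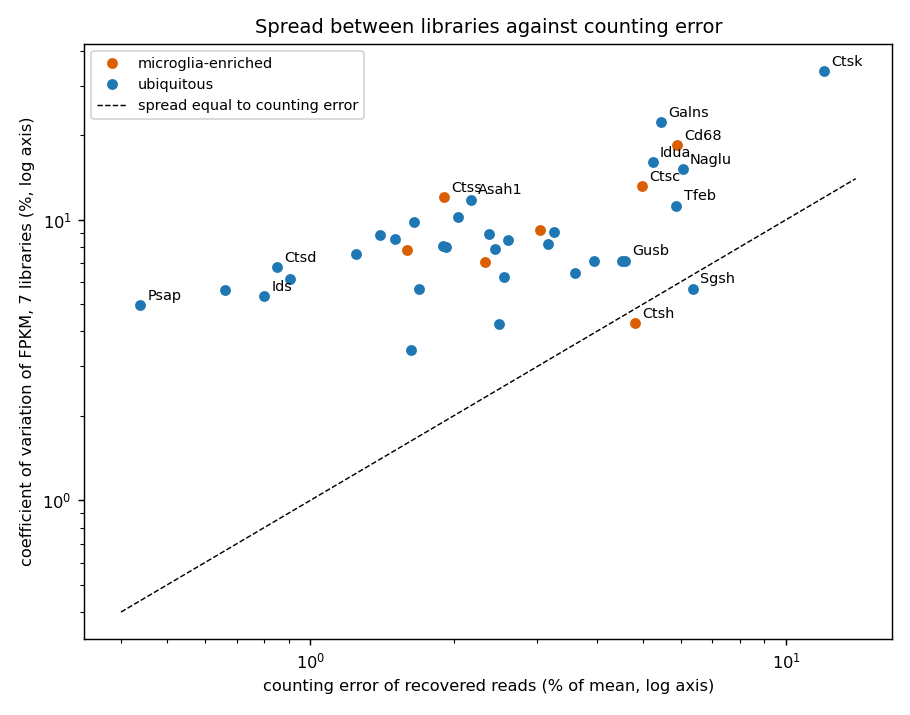
CV between the 7 libraries (per cent) against the CV that counting error alone gives (per cent), each point 1 lysosomal gene, log axes. Ctsh and Sgsh lie at or below the line of equality, Ctsk lies highest at 33.8%, and Psap lies 11.3 times above its counting error.

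The members were then set against the makeup of each library. Microglia were measured by 17 matched markers of the 18 listed, none of them lysosomal members and none at 0 in any library, which summed to 246 to 315 FPKM. Their score, the mean z value, was highest in replicate 5 at 0.98 and lowest in replicate 4 at -0.80, and 10 of the 17 markers were highest in replicate 5. A slope of log2(FPKM + 1) on the score was fitted across all genes with limma-trend and Benjamini-Hochberg adjustment at 0.05. With the microglia score, 0 of 38 members passed, beside 0 of 12052 genes, and limma without the trend also called 0. The genes tested include the 17 markers that make up the score, and these did not pass either. The fit thus could not call its own markers, and 0 members does not show that members fail to follow the score. At an unadjusted p under 0.05 there were 3 members, Cd68, Ctss and Idua, a share of 7.89%, beside 11.4% of all genes. Without replicate 5 this was 1 member, Cd68, beside 3.14% of genes, and with the striatal score as covariate 0 members, beside 3.25%. The striatal score was 2.25 in replicate 5 and -0.31 or less in every other library. This covariate therefore nearly repeats leaving out replicate 5 and is not a separate check. Cd68 had a slope of 0.32 per unit of score (SE 0.073, limma adjusted p = 0.415) and Ctss 0.23 (SE 0.073, limma adjusted p = 0.415). Idua had 0.19 (SE 0.078, limma adjusted p = 0.415), but 0.04 without replicate 5, where Cd68 had 0.20 and Ctss 0.19.

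The microglia-enriched members had a median slope of 0.09 on this score, the ubiquitous ones 0.02 and all genes 0.00, as a description with no test. Without replicate 4 these were 0.02, -0.01 and -0.02, and the median of the ubiquitous members also turned negative without replicate 5, without mitochondrial genes and with the striatal score as covariate. Of the 7 microglia-enriched members, 5 had positive slopes, beside 48.3% of all genes, and without replicate 5 this was 7 of 7, beside 49.1%. With values rescaled to a common sum it was 4 of 7, beside 33.8%, and the medians moved to 0.02 for the microglia-enriched members, -0.05 for the ubiquitous ones, whose direction turned, and -0.05 for all genes.

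**Figure D4:**
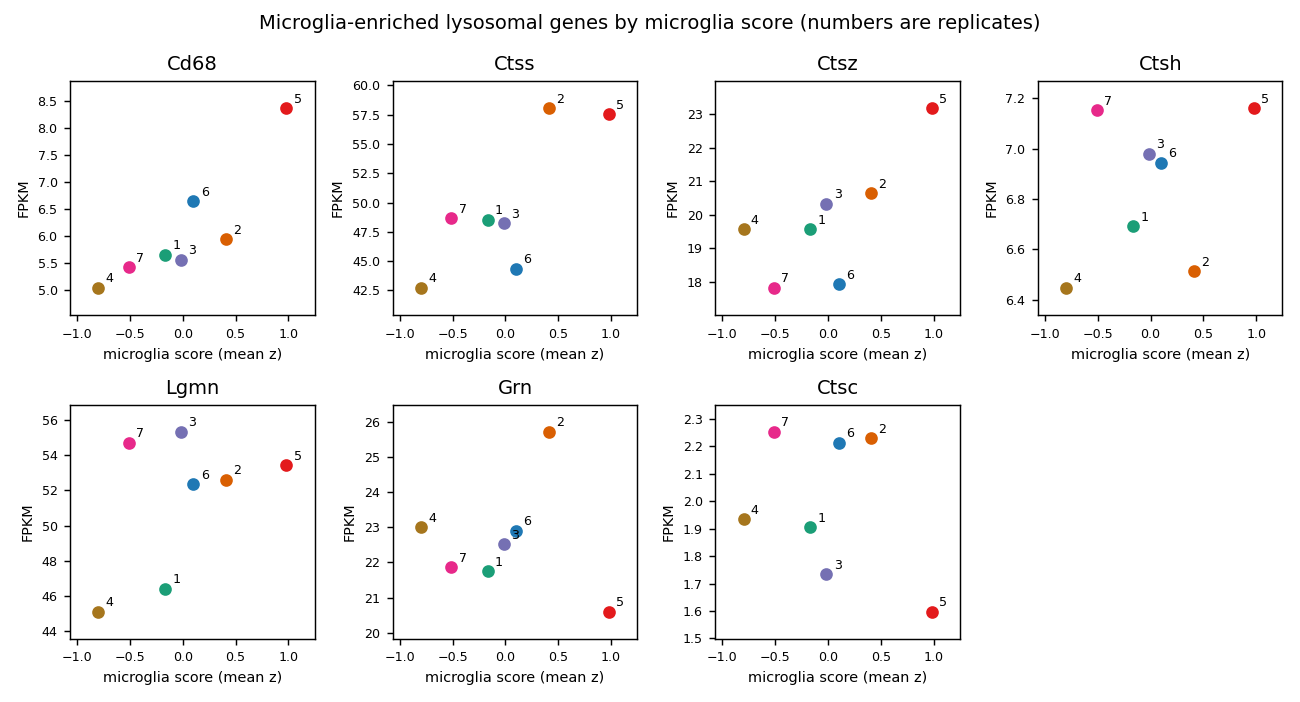
FPKM of the microglia-enriched lysosomal genes against the microglia score (mean z value of 17 markers), each point 1 library numbered by replicate; the FPKM axes do not start at 0. Cd68 and Ctss are high in replicate 5 and lowest in replicate 4, and Ctsc is lowest in replicate 5, where the score is highest.

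Myelin content also differed between the libraries. The 14 myelin markers summed to 1342 to 2412 FPKM, their score was highest in replicate 7 at 1.25 and lowest in replicate 2 at -1.24, and none was at 0. The score was 0.96 in replicate 5 and 0.63 in replicate 6, and -0.379 or less in replicates 1 to 4. A slope on it cannot be told apart from any other difference between replicates 5 to 7 and replicates 1 to 4. With this score limma-trend called 181 genes with positive slopes (1.5%) and 94 with negative ones (0.78%), but 0 of 38 members. The genes tested include the 14 markers that make up the score. At an unadjusted p under 0.05 there were 8 members, a share of 21.1%, beside 22.8% of all genes, so the members stood near the background. Asah1, Ctsk, Lamp2, Npc2 and Lamp1 had positive slopes and Galns, Arsb and Mcoln1 negative ones. Asah1 had a slope of 0.15 (SE 0.038, limma adjusted p = 0.0699), Ctsk 0.23 (SE 0.059, limma adjusted p = 0.0718) and Lamp2 0.11 (SE 0.030, limma adjusted p = 0.0830). Without replicate 7, Galns alone passed, with a slope of -0.26 (SE 0.054, limma adjusted p = 0.0490), against -0.21 (SE 0.059, limma adjusted p = 0.0941) with all libraries. In that fit 97 genes with positive and 158 with negative slopes passed out of 12036. Over 14 alternatives its adjusted p ran from 0.0490 to 0.265.

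**Figure D5:**
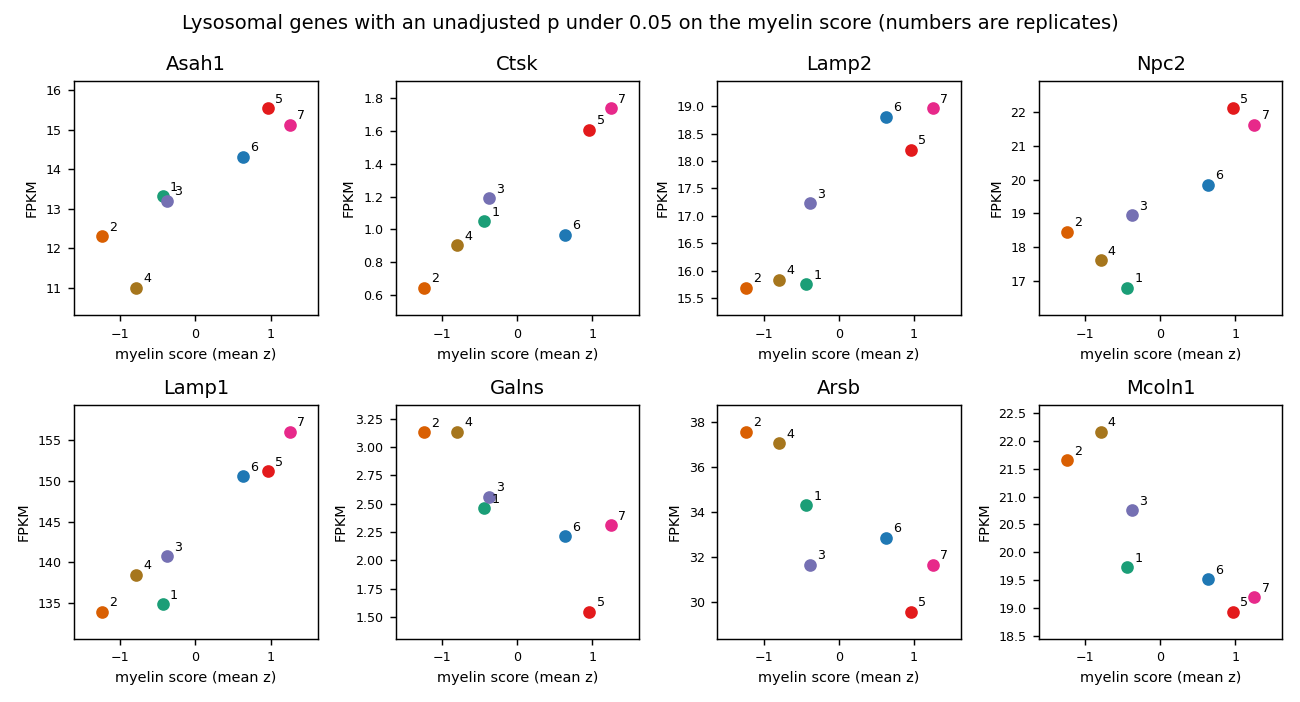
FPKM of the 8 lysosomal genes with an unadjusted p under 0.05 against the myelin score (mean z value of 14 markers), each point 1 library numbered by replicate; the FPKM axes do not start at 0. Lamp1, Lamp2, Npc2 and Asah1 are higher in replicates 5, 6 and 7 than in the other 4 libraries, and Galns, Arsb and Mcoln1 are highest in replicates 2 and 4.

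Choroid plexus, an epithelium of the ventricles next to the hippocampus, differed widely between libraries. Its 10 markers summed to 27.4 to 1122 FPKM, and the 5 kept gave scores of 1.41 in replicate 7 and 1.12 in replicate 3, against 0.06 or less in the other 5 libraries. No choroid plexus marker was at 0 in any library. limma-trend called 8 genes (0.0664%) and 0 of 38 members with this score, and 0 genes without replicate 3 or without replicate 7. The genes tested include the 5 markers that make up the score. With all libraries 1 member, Ctsd, had an unadjusted p under 0.05, beside 4.04% of all genes. Its slope was 0.09 (SE 0.037, limma adjusted p = 0.999). Ctsl followed with a slope of 0.10 and Lgmn with 0.09. Without replicate 5, 8 members were under an unadjusted 0.05, beside 9.69% of genes, and 0 passed the adjustment. The 10 meninges and fibroblast markers summed to 27.4 to 49.8 FPKM, none was at 0, and on the score of the 9 kept limma-trend called 0 members and 0 of 12052 genes. The genes tested there include these 9 markers, which did not pass either, so 0 members does not show that members fail to follow this score. There 0 members, beside 1.95% of genes, had an unadjusted p under 0.05, and the smallest p-values were those of Lamp2, Gla and Ctsl, with slopes of 0.11, 0.09 and 0.11 (the limma adjusted p was 0.9999 for each).

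Other genes of the same organelle were counted from lists chosen by name. Of 16 other hydrolases kept, 3 reached a ratio of 1.5, of 13 other membrane proteins 1 did, and of 16 subunits of the V-ATPase, the proton pump that acidifies lysosomes, 0 did. Likewise 0 of 6 sorting genes, 0 of 2 cystatins and 0 of 11 genes of the TFE factors and the lysosomal mTORC1 platform reached it, where all genes gave 24.5%. Gaa, acid alpha-glucosidase, was the highest of the other hydrolases, with 81.9 FPKM at the lowest and 91.2 FPKM at the highest. The carboxypeptidase Cpq varied most among them, from 5.42 to 8.45 FPKM. Of the other membrane proteins, Laptm4a was the highest, with a median of 67.0 FPKM, and Cd63, a tetraspanin of late endosomes and lysosomes, varied most, with 29.6 FPKM in replicate 1, a median of 39.7 FPKM and 49.8 FPKM in replicate 7. The V-ATPase subunits had a median SD of 0.08, and 9 of 16 were lowest in replicate 5, beside 26.0% of all genes. Atp6v1a, the catalytic subunit, had 156 FPKM in replicate 5, a median of 204 FPKM and a highest of 216 FPKM. Sort1, the sorting receptor sortilin, was also lowest in replicate 5, at 77.0 FPKM, with a median of 94.4 FPKM. The cystatins, inhibitors of cysteine cathepsins, included a gene above every lysosomal protease in level: Cst3 had 1536 FPKM at the lowest, 1736 FPKM at the median and 2075 FPKM at the highest. Rraga, a GTPase that recruits mTORC1 to lysosomes, ranged from 69.6 to 74.2 FPKM.

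Members were also described by whether their window held an E-box. The 12 with an E-box had a median level of 21.3 FPKM and a median SD of 0.09, and 1 of 12 reached a ratio of 1.5. The 22 without had a median level of 18.0 FPKM, and the 21 of them kept had a median SD of 0.11, with 3 reaching that ratio. These are descriptions with no test.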

How the data were processed

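Each column of the table was matched to its sample by the library name in the labels. The authors deposited FPKM for 27583 genes; the unit is named by the deposited table. The build mm10 is named per the submitters' processing notes; the aligner, counter, annotation and filters were not given in the sources used here. Values in this unit depend on the RNA composition of a library. Reads per gene were recovered from the step between values, within 0.01 of a whole number in every library, for 12051 of 12052 genes kept (99.99%) and all 39 members, as the smallest whole numbers, and served only for counting error. No count model was run.

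Genes kept had a median FPKM of at least 1. Slopes on marker scores used log2(FPKM + 1), which understates changes of low genes, and limma-trend over all genes kept, with Benjamini-Hochberg adjustment at 0.05. A library stood apart where its gap to the next, over the range, exceeded Dixon's 95% limit for that number of libraries. The members, the gene lists and the tests were chosen with earlier results of these data known. Named are the microglia-enriched members, Tfeb, the highest, lowest and most variable member of each role, members called or with a library apart, and the 3 smallest p-values per fit; other members were named after their values were seen. The limma fit on the microglia score was checked on simulated slopes of 0.5 and 1 with independent normal noise. Of 200 changed genes, 70% and 94.5% were recovered. All members had smaller slopes on this score, and such slopes were not simulated, so the check does not show how many would be called. Alternatives were a pseudocount of 0.1, a fixed sum of 1000000, upper-quartile scaling, a sum without mitochondrial genes, minimums of 0.1 and 5 FPKM, leaving out each library, limma without the trend and the striatal score as covariate. Gene positions are from GENCODE M21 and promoters from RefSeq, both on mm10. Slopes were fitted with limma 3.58.1 in R 4.3.3, other values with scipy 1.17.1, pandas 2.3.3 and numpy 2.4.6 in Python 3.11.15, and figures with matplotlib 3.10.9.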

Additional observations from a re-analysis of the deposited data

Results flagged for a closer look

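For some genes and scores a single library lay far from the other 6. The gap to the nearest library took 0.630 of the whole range for Idua and 0.655 for Galc, both high in replicate 5, and 0.625 for Arsa, high in replicate 3. Among V-ATPase subunits the gap was 0.715 for Atp6v1e1, low in replicate 4, and 0.598 for Atp6v1a, low in replicate 5. Beyond the genes named by rule, Atp6v0d1, another subunit, had 0.636, low in replicate 5, the acid sphingomyelinase Smpd1 had 0.619, high in replicate 3, and the cystatin Cst6, below the minimum level, had 0.808, high in replicate 5. These were added after their values were seen. The neuron score had 0.587, low in replicate 5, and the striatal score 0.958, high in replicate 5. Chance flags about 1 in 20 groups, and 9.72% of all genes kept had such a gap, which was 3.87% without replicate 5. Whether the striatal signal in replicate 5 has a part in the values of Idua and Galc was not tested.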

How the results depend on the processing

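No paired analysis was possible because all 7 samples stand in a single group. The count of members with a ratio of at least 1.5 was 5, but 1 (Cd68) with a minimum of 5 FPKM, where 29 members and 7904 genes were kept and 14.7% of genes reached it, and 2 to 5 when each library was left out, beside 13.6% to 23.1% of genes. The count with a library apart was 3, but 1 (Arsa) with that minimum, beside 9.72% of genes, and 2 to 5 with a library left out, beside 3.87% to 9.92%. Members passing the myelin fit were 0 to 1 with a library left out; the one was Galns without replicate 7. The other 97 summary values kept their side of the threshold or lay within 1.5 times. No named slope changed sign. The 3 scalings moved the median gene by at most 0.067 on the log2 scale. Under each of them Ctsb stood apart and Arsa did not, and Galc did not with the fixed sum. Genes called with the myelin score ranged from 17 to 264 positive and 1 to 194 negative with a library left out. Depth limits the low members: Ctsk had 38 to 105 reads, and Ctsh and Sgsh did not vary beyond counting error.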

Other observations

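The microglial markers did not rank the libraries alike. Of the 17 markers, 10 were highest in replicate 5, 5 in replicate 2 and 2 in replicate 3, and 8 were lowest in replicate 4, 4 in replicate 7, 2 in replicate 3 and 1 each in replicates 2, 5 and 6. The 5 highest in replicate 2 were C1qa, C1qb and C1qc, subunits of the first complement component, at 50.6, 59.0 and 46.5 FPKM, with Itgam and Olfml3. Tmem119 and Selplg were highest in replicate 3, and Tmem119 was lowest in replicate 5, at 9.24 FPKM. Among the 10 highest in replicate 5 were P2ry12, P2ry13, Cx3cr1 and Tyrobp, at 18.9, 5.87, 14.1 and 27.6 FPKM. Of the lysosomal members enriched in microglia, Grn was highest in replicate 2, and Cd68 and Ctsz in replicate 5. For the others the highest library was within counting error of another. Ctss had 3143 reads in replicate 2 and 3147 in replicate 5, and Ctsh 451 in replicate 5 and 455 in replicate 7. Lgmn had 4242 in replicate 3 and 4186 in replicate 7, and Ctsc 463 in replicate 7 and 452 in replicate 6. The examples were picked with their values in view, and no difference between these sets was tested.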
